A study of Rattus norvegicus with 12 samples.

Results

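The genes described here are the regulators that hold or release a cell at the G1 restriction point: the D-type cyclins Ccnd1, Ccnd2 and Ccnd3, their kinases Cdk4 and Cdk6, the CDK inhibitors Cdkn1b, Cdkn1c and Cdkn2c, and the pocket proteins Rb1 and Rbl1. They were chosen by gene symbol and make up 10 of the 34034 genes in the count table. Of these, 9 were among the 14324 genes that passed a filter on low counts, and Cdkn1c did not pass. Polyadenylated RNA was sequenced from INS-1E cells, a rat insulinoma line that secretes insulin, with the labelled genotype WT in every library. The 4 groups held 3 libraries each, which the labels call biological replicates. Untreated cells received no cytokine. IL-1βlow cells received IL-1β at 10 pg/ml for 72 h, renewed each 24 h. CYT cells were given IL-1β at 100 pg/ml and IFN-γ at 5 ng/ml over 16 h, while IL-1βlow + CYT cells received the low dose first, then fresh medium and the CYT mixture. Every library came from this same tumour-derived line, so the values describe growing cells in culture and not islets, and p-values measure the spread between these cultures.

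D-type cyclins rise in response to growth signals and bind CDK4 or CDK6, and the active kinases phosphorylate the pocket proteins. Unphosphorylated pocket proteins hold E2F factors at the promoters of genes for DNA replication, so their phosphorylation lets S phase begin. INK4 inhibitors such as the product of Cdkn2c bind CDK4 and CDK6 directly, whereas Cip/Kip inhibitors such as the products of Cdkn1b and Cdkn1c act mainly on CDK2 complexes. In rodent β-cells, Cdk4 and Ccnd2 are known as the main kinase and cyclin for postnatal growth, and Cdk6 is scarce. The values given are mRNA levels, and much of the control of these proteins lies in their stability and phosphorylation, which were not measured.

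RefSeq promoter sequence was found for 6 of the 10 genes, and no promoter was matched for Ccnd1, Ccnd2, Cdk6 and Cdkn1c. The 250 bases before the transcription start are shown for the inhibitor with the widest range of levels, for the pocket protein that changed and for the kinase whose treated libraries all lay above the untreated ones. Each was read from the strand of its gene in the GRCr8 build, which is not the mRatBN7.2 build of the counts. Cdkn2c lies at chr5:129644892-129645141 on the minus strand, Rbl1 at chr3:166289377-166289626 on the minus strand and Cdk4 at chr7:64771203-64771452 on the plus strand. Capitals mark matches to an E2F word in Rbl1 and to the E-box word bound by Myc-family factors in Cdk4.
Cdkn2c: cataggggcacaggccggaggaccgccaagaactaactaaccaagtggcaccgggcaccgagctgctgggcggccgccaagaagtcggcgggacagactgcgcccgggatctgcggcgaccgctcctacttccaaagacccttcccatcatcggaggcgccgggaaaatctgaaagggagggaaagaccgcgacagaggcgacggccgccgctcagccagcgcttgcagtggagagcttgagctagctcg
Rbl1: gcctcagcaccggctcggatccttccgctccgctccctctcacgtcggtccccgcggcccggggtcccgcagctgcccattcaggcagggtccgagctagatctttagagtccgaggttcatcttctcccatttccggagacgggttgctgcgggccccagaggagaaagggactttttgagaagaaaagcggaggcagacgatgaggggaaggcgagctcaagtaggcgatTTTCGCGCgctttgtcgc
Cdk4: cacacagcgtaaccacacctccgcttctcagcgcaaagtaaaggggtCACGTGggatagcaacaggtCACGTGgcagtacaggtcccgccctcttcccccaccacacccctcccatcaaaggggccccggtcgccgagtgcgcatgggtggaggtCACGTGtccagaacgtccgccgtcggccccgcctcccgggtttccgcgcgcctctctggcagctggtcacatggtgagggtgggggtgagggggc

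The words searched on both strands were TTTCCCGC, TTTGGCGC, TTTCGCGC or TTTGCCGC for E2F, CACGTG for the E-box, TTCNNNGAA for the STAT-bound GAS element, and the NF-κB element by its usual consensus. Rbl1 held TTTCGCGC with its first base at position -18 from the start, and no other promoter of the 6 held an E2F word, against 1.81% of all 27457 promoters of this length. Cdk4 held the E-box at positions -203, -183 and -95, whereas 5.79% of all promoters held at least 1. Neither the GAS element nor the NF-κB element was matched in any of the 6, and their shares over all promoters were 7.52% and 6.41%. The Cdkn2c window held none of these words. A match describes letters only, and binding was not measured.

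Total counts ran from 15812640 to 20246806 per library, and values are given as CPM, the count scaled to the library total with TMM factors, which compares a gene between groups but not with another gene. An entry for ribosomal RNA took 6.89% (untreated replicate 3) to 11.1% (IL-1βlow + CYT replicate 3) of the total counts. All 9 β-cell markers examined, Ins1, Ins2, Pdx1 and Mafa among them, were detected in every group, and Gcg of alpha cells had 415 to 6398 counts. Of 5 macrophage and leukocyte markers, Ptprc and Itgam had 0 counts in every library, whereas Cd68 had 5 to 22, Adgre1 0 to 58 and Csf1r 1 to 32. Lum of fibroblasts, Tie1 of endothelium and the exocrine genes Prss1 and Cpa1 also had 0, whereas Pdgfra had 89 to 280 counts and Vwf 61 to 177. A gene was called when the edgeR quasi-likelihood test gave an adjusted p under 0.01 and a log2 fold change beyond 0.6 for IL-1βlow against untreated, or beyond 1 for the other comparisons. A second count used the adjusted p alone. Every adjusted p given here comes from this test, over all 14324 genes.

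The CYT challenge raised a G1 kinase and lowered an inhibitor. Cdk6 rose 3.70-fold, and Cdkn2c fell to 0.2195 of its untreated level. The pocket protein gene Rbl1 fell to 0.488 and the scarce Ccnd1 rose 3.28-fold, and both of these calls were lost without untreated replicate 1 or CYT replicate 2. Ccnd1 had passed the filter on low counts only through treated libraries. IL-1βlow alone changed none of them past the thresholds. In preconditioned and challenged cells, Cdk6 stood at 0.346 and Cdkn2c at 2.30 times its level in cells challenged without preconditioning.

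For CYT against untreated, 4 of the 9 tested genes were called, 2 higher and 2 lower, beside 21.6% of all tested genes (10.0% higher and 11.6% lower), and 2 remained called without untreated replicate 1 or CYT replicate 2, Cdk6 and Cdkn2c. On the adjusted p alone, 5 were higher and 2 lower, where 49.7% of all genes passed (25.2% higher and 24.5% lower), and 7 of the 9 had groups that did not overlap, where 69.3% of all genes did not. When IL-1βlow + CYT was compared with CYT, 2 were called, 1 in each direction, beside 12.5% of all genes (6.54% higher and 5.92% lower). On the adjusted p alone 1 was higher and 3 were lower, beside 36.3% (17.1% higher and 19.2% lower), and 6 did not overlap, beside 54.4%. The challenge reached a large part of the transcriptome, and the shares of G1 genes whose groups did not overlap were near those of all genes. In these bulk libraries, fewer cells of a type and less RNA per cell cannot be told apart.

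For IL-1βlow against untreated, edgeR called 0 of the 9 genes, and DESeq2 and edgeR's exactTest also called 0, beside 0.433% of all genes called by edgeR (0.265% higher and 0.168% lower). At an unadjusted p under 0.05, 4 of the 9 passed. The share of all genes at that level was not counted, here or for such counts below. The groups did not overlap for 5 genes, against 23.7% of all genes. Between IL-1βlow + CYT and untreated cells, all 3 tests called 0, beside 5.99% by edgeR (3.85% higher and 2.14% lower), with 5 at an unadjusted p under 0.05. On the adjusted p alone 1 was higher and 1 lower, beside 13.8% of all genes (8.24% higher and 5.53% lower), and 5 did not overlap, beside 37.3%. For the challenge within preconditioned cells, IL-1βlow + CYT against IL-1βlow, all 3 tests called 0, beside 3.88% by edgeR (2.92% higher and 0.963% lower), with 3 at an unadjusted p under 0.05. On the adjusted p alone 1 was lower, beside 8.20% of all genes (5.57% higher and 2.63% lower), and 3 did not overlap, beside 27.1%.

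**Figure D1:**
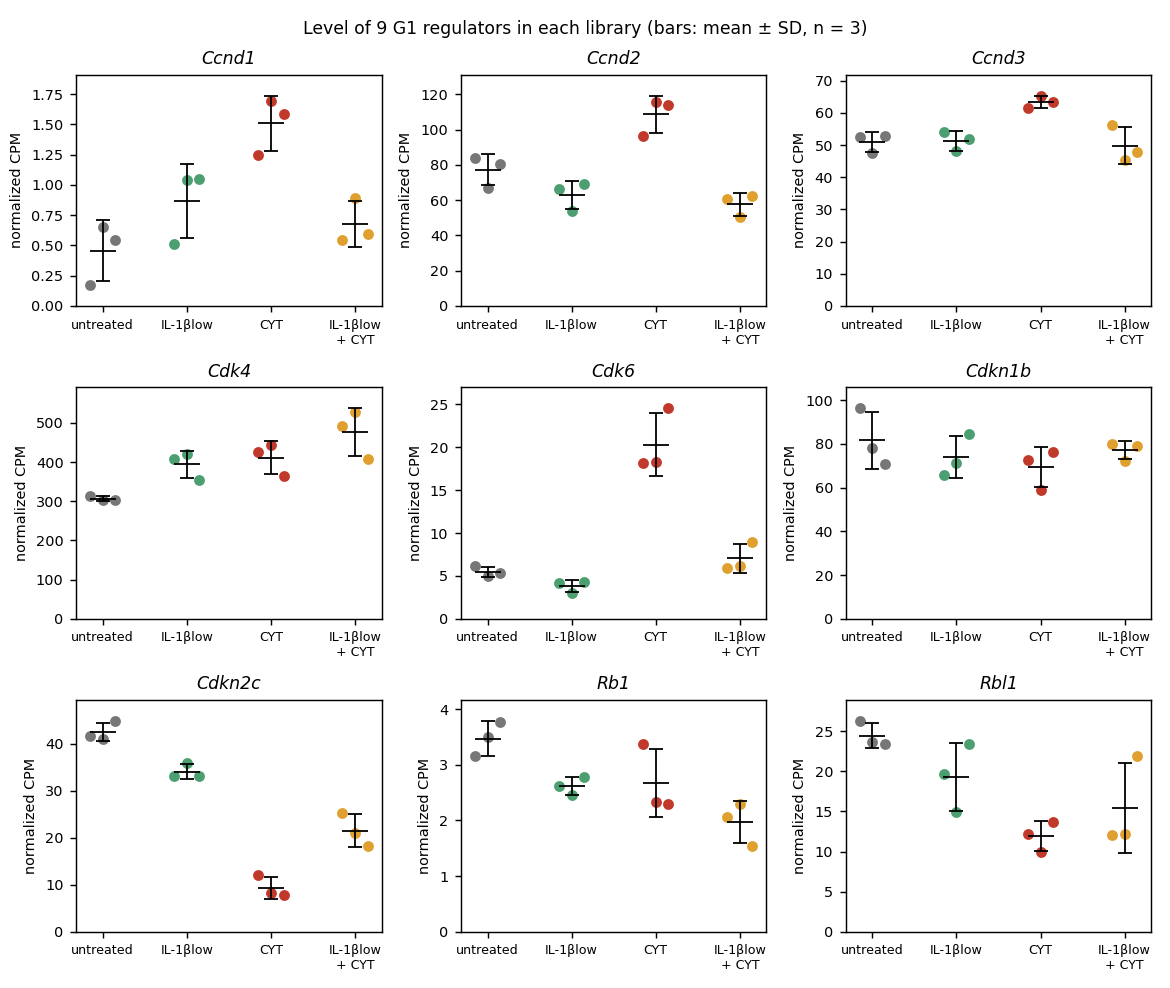
Level of the 9 tested G1 genes in every library, as TMM-normalized CPM (vertical axis, from 0, scaled for each gene) in the 4 groups; points are libraries and bars are mean ± SD of 3. Cdk6 stands at 18.1 to 24.5 CPM in CYT cells against at most 8.97 elsewhere, and Cdkn2c falls stepwise from untreated to IL-1βlow, IL-1βlow + CYT and CYT cells with no overlap between groups.

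Among the D-type cyclins, Ccnd2 had levels of 83.9, 67.1 and 80.6 CPM in untreated libraries (77.2 ± 8.90, SD, n = 3) and 96.6, 116 and 114 CPM in CYT libraries (109 ± 10.5). In IL-1βlow libraries it had 66.1, 54.0 and 69.0 CPM, and in IL-1βlow + CYT libraries 60.5, 50.2 and 62.0 CPM. All 3 CYT libraries lay above every other library, and the other groups ran into each other except that IL-1βlow + CYT lay below untreated. The log2 fold change of Ccnd2 was 0.49 ± 0.12 (SE) for CYT against untreated (adjusted p = 0.00258), short of the fold change minimum. The IL-1βlow + CYT against CYT value was -0.92 ± 0.12 (adjusted p = 2.79e-05), also short of the minimum, and it passed at -1.03 without CYT replicate 1. Against untreated cells, preconditioned challenged cells had -0.42 ± 0.12 (adjusted p = 0.0211). Ccnd2 was therefore at its highest after the challenge alone, and its levels in IL-1βlow and IL-1βlow + CYT cells differed by -0.13 ± 0.12 on the log2 scale, with a 95% interval of -0.37 to 0.11.

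Ccnd3 was also highest after the challenge alone, over a narrower range than Ccnd2. Its levels were 52.5, 47.5 and 52.8 CPM in untreated libraries, 54.0, 48.1 and 51.8 in IL-1βlow libraries, 61.6, 65.4 and 63.4 in CYT libraries and 56.2, 45.3 and 47.8 in IL-1βlow + CYT libraries. The CYT libraries lay above all others, and the remaining groups overlapped. The log2 fold change was 0.32 ± 0.09 (SE) for CYT against untreated (adjusted p = 0.00890) and -0.35 ± 0.09 for IL-1βlow + CYT against CYT (adjusted p = 0.00635), both under the fold change minimum. For IL-1βlow against untreated it was 0.01, with a 95% interval of -0.17 to 0.19.

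Ccnd1, the third D-type cyclin, rested on few reads. It had 3, 11 and 9 counts in untreated libraries, 10, 17 and 17 in IL-1βlow libraries, 23, 29 and 31 in CYT libraries and 9, 18 and 10 in IL-1βlow + CYT libraries. It reached the filter of 1 CPM through the CYT libraries and 2 IL-1βlow libraries, so a difference involving these groups was favoured by the filter itself. In CPM the CYT libraries (1.25, 1.69 and 1.58) lay above every other library, and the other groups overlapped. The log2 fold change was 1.72 ± 0.43 (SE) for CYT against untreated (adjusted p = 0.00293), and this call was lost without untreated replicate 1 (1.33, adjusted p = 0.0145) or CYT replicate 2 (1.63, adjusted p = 0.0109). For IL-1βlow + CYT against CYT it was -1.13 ± 0.40 (adjusted p = 0.0283), and with the replicate number as a block -1.16 (adjusted p = 0.00841), which would be a call.

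Of the kinases, Cdk6 showed the larger rise. It stood at 6.13, 5.03 and 5.29 CPM in untreated libraries (5.48 ± 0.575, SD, n = 3) and at 18.1, 18.3 and 24.5 CPM in CYT libraries (20.3 ± 3.64). In IL-1βlow libraries it stood at 4.20, 3.01 and 4.32 CPM (3.84 ± 0.727), and in IL-1βlow + CYT libraries at 5.96, 6.22 and 8.97 CPM (7.05 ± 1.67). Only the CYT libraries stood clear of all others on the high side, the IL-1βlow libraries lay below all other groups, and untreated and IL-1βlow + CYT libraries overlapped. Cdk6 rose by 1.89 ± 0.19 (SE) on the log2 scale for CYT against untreated (adjusted p = 1.26e-06) and was lower by -1.53 ± 0.19 for IL-1βlow + CYT against CYT (adjusted p = 1.54e-05). Within preconditioned cells the challenge gave 0.87 ± 0.21 (adjusted p = 0.0103). The residual difference of IL-1βlow + CYT from untreated cells was 0.36, with a 95% interval of -0.03 to 0.75 (adjusted p = 0.225).

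Cdk4 followed a different order, with its lowest levels in untreated cells. It had 314, 303 and 302 CPM in untreated libraries (307 ± 6.53, SD, n = 3), 408, 420 and 353 in IL-1βlow libraries (394 ± 35.4), 426, 444 and 363 in CYT libraries (411 ± 42.6) and 491, 528 and 409 in IL-1βlow + CYT libraries (476 ± 60.9). Every treated library lay above every untreated one, and the treated groups overlapped with each other. The log2 fold change was 0.36 ± 0.11 (SE) for IL-1βlow (adjusted p = 0.135), 0.42 ± 0.11 for CYT (adjusted p = 0.00303) and 0.63 ± 0.11 for IL-1βlow + CYT (adjusted p = 0.000470), each against the same untreated libraries. None reached its fold change minimum. In the GRCr8 annotation Cdk4 shares 11 bases with Tspan31, a tetraspanin gene with 1169 to 1769 counts per library. Cdk6 overlaps a non-coding RNA gene by 18130 bases there, and Rbl1 overlaps a pseudogene by 1886 bases. Ccnd3, Rb1 and Rbl1 also overlap non-coding RNA genes, and the count table holds none of these non-coding genes or the pseudogene. Whether the counting used strand was not given in the sources used here.

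Among the inhibitors, Cdkn2c had the widest spread between groups. It stood at 41.6, 41.1 and 44.8 CPM in untreated libraries (42.5 ± 1.99, SD, n = 3) and at 12.01, 8.16 and 7.82 CPM in CYT libraries (9.33 ± 2.33). In IL-1βlow libraries it stood at 33.2, 35.9 and 33.2 CPM (34.1 ± 1.60), and in IL-1βlow + CYT libraries at 25.2, 21.0 and 18.3 CPM (21.5 ± 3.46). No library of any group overlapped with another group, so the order from high to low was untreated, IL-1βlow, IL-1βlow + CYT and CYT. Cdkn2c fell by 2.19 on the log2 scale for CYT against untreated (SE 0.16, adjusted p = 3.05e-08). For IL-1βlow + CYT against CYT it rose by 1.20 ± 0.16 (adjusted p = 2.53e-05). Preconditioned challenged cells stayed at -0.98 ± 0.15 against untreated cells (adjusted p = 0.000192), just short of the fold change minimum. The step from untreated to IL-1βlow, -0.32 ± 0.15, did not pass (adjusted p = 0.354).

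Cdkn1b, which encodes p27 and restrains CDK2 in quiescent cells, showed no separation between groups. Its levels were 96.2, 78.0 and 70.8 CPM in untreated libraries, 65.7, 71.3 and 84.4 in IL-1βlow libraries, 72.7, 59.0 and 76.1 in CYT libraries and 79.7, 72.3 and 79.2 in IL-1βlow + CYT libraries. Each of the 4 groups overlapped with the others. The log2 fold change was -0.24 for CYT against untreated, with a 95% interval of -0.49 to 0.01 (adjusted p = 0.122), and 0.15 for IL-1βlow + CYT against CYT, with an interval of -0.10 to 0.40 (adjusted p = 0.339). Cdkn1c, the imprinted inhibitor that encodes p57 and is known from human β-cells, had 1 count in IL-1βlow replicate 2 and 0 in the other 11 libraries. A library with 0 counts allows up to 3 counts, which is 0.148 to 0.190 CPM over these libraries, for counting error only.

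The pocket proteins were Rbl1, which encodes p107 and is itself an E2F target in growing cells, and Rb1, the retinoblastoma protein. Rbl1 stood at 26.2, 23.7 and 23.4 CPM in untreated libraries (24.4 ± 1.56, SD, n = 3), 19.6, 14.97 and 23.4 in IL-1βlow libraries, 12.2, 9.91 and 13.6 in CYT libraries (11.9 ± 1.88) and 12.1, 12.2 and 21.9 in IL-1βlow + CYT libraries (15.4 ± 5.65). The CYT libraries lay below all untreated and IL-1βlow libraries, and IL-1βlow + CYT replicate 3 stood apart from the other 2 of its group, near the IL-1βlow level. Rbl1 fell by 1.03 on the log2 scale for CYT against untreated (SE 0.22, adjusted p = 0.000934). That value sat at the fold change minimum and moved under it, to -0.97 without untreated replicate 1 and -0.92 without CYT replicate 2, while its adjusted p stayed under 0.01. With preconditioning before the challenge it was 0.37 ± 0.22 against CYT (adjusted p = 0.184), or 0.026 without IL-1βlow + CYT replicate 3, and against untreated -0.67 ± 0.22 (adjusted p = 0.0397), or -1.01 without IL-1βlow + CYT replicate 3 (adjusted p = 0.000596).

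Rb1 was measured with 26 to 62 counts per library. It had 3.15, 3.49 and 3.77 CPM in untreated libraries, 2.61, 2.45 and 2.78 in IL-1βlow libraries, 3.37, 2.33 and 2.30 in CYT libraries and 2.07, 2.29 and 1.55 in IL-1βlow + CYT libraries. Untreated libraries lay above the IL-1βlow and IL-1βlow + CYT libraries, and CYT replicate 1 fell inside the untreated range. The log2 fold change was -0.41 ± 0.22 (SE) for IL-1βlow (adjusted p = 0.413), -0.38 ± 0.22 for CYT (adjusted p = 0.144) and -0.81 ± 0.22 for IL-1βlow + CYT (adjusted p = 0.0175), each against the same untreated libraries. None passed, and at this depth a change of the size of the CYT estimate was not separable from 0. In the GRCr8 annotation Rb1 overlaps Lpar6, which had 0 counts in every library.

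**Figure D2:**
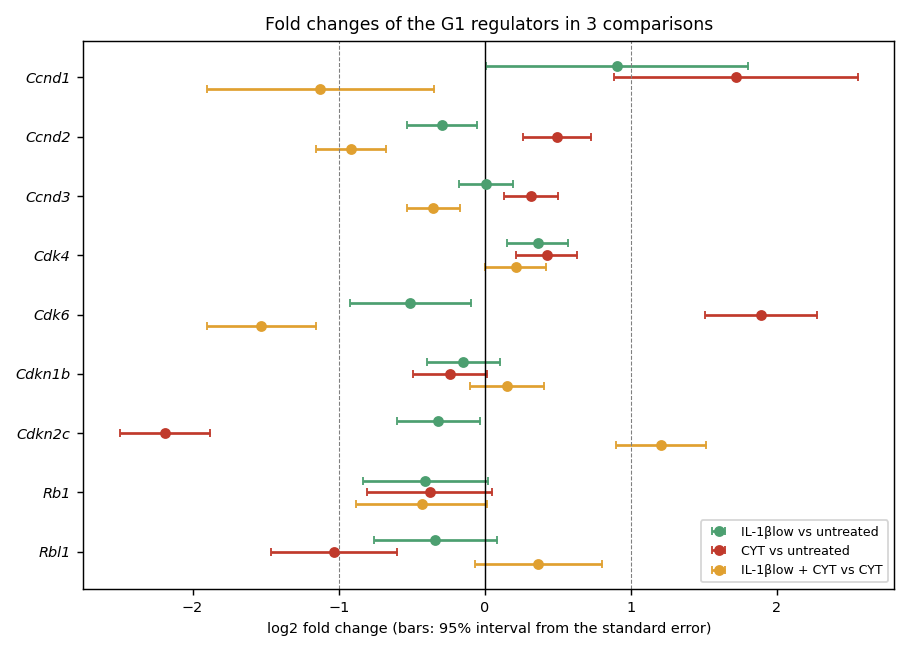
Log2 fold change (horizontal axis) of the 9 tested G1 genes in 3 comparisons; points are edgeR estimates, bars are 95% intervals from the standard error and dashed lines mark -1 and 1. For Cdk6 and Cdkn2c, the CYT against untreated values of 1.89 and -2.19 and the IL-1βlow + CYT against CYT values of -1.53 and 1.20 lie beyond the dashed lines on opposite sides of 0.

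The interaction of preconditioning and challenge asks whether the CYT response differed with IL-1βlow, and it was called for 1 of the 9 genes, Cdkn2c, in the higher direction, beside 10.7% of all genes (5.48% higher and 5.20% lower). The Cdkn2c response was -2.19 ± 0.16 (SE) without and -0.67 ± 0.15 with preconditioning, a difference of 1.52 ± 0.21 (adjusted p = 0.000121). For Cdk6 the responses were 1.89 and 0.87, a difference of -1.02 ± 0.28 (adjusted p = 0.0118). Ccnd2 had 0.49 and -0.13, a difference of -0.63 ± 0.17 (adjusted p = 0.0109), and Ccnd1 had 1.72 and -0.32, a difference of -2.03 ± 0.61 (adjusted p = 0.0173). None of these last 3 passed in the fit without a block. With the replicate number as a block, Ccnd1 (-2.08, adjusted p = 0.00438) and Cdk6 (-1.01, adjusted p = 0.00236) passed. Both also passed with no filter on low counts, and Cdk6 passed with RLE factors, with DESeq2 and without IL-1βlow replicate 2 or IL-1βlow + CYT replicate 3. For Ccnd3 the difference was -0.36 ± 0.13 (adjusted p = 0.0452) and for Rbl1 0.70 ± 0.31 (adjusted p = 0.0870). For Cdk4 it was -0.15, with a 95% interval of -0.44 to 0.14, for Cdkn1b 0.30, with an interval of -0.06 to 0.65, and for Rb1 -0.03, with an interval of -0.64 to 0.59.

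**Figure D3:**
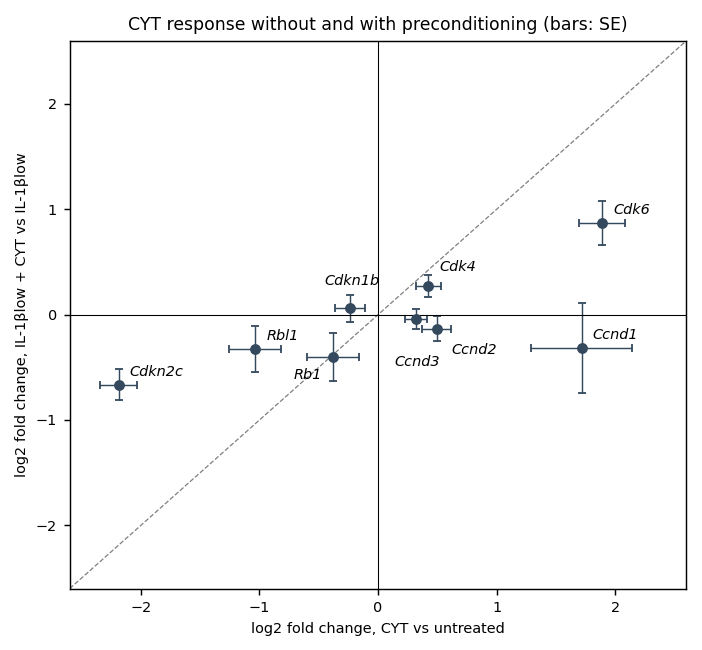
Log2 fold change of the CYT challenge in cells without preconditioning (horizontal axis) against that in IL-1βlow cells (vertical axis) for the 9 tested G1 genes; bars are standard errors and the dashed line marks equal responses. Cdkn2c (-2.19 and -0.67) and Cdk6 (1.89 and 0.87) lie farther from 0 on the horizontal than on the vertical axis, and Cdk4 (0.42 and 0.27) and Rb1 (-0.38 and -0.40) lie near the line.

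Ratios within a library do not depend on scaling between libraries, and their change between groups does not depend on gene length. Against the untreated mean, the log2 ratio of Cdk6 to Cdk4 moved by 1.46 ± 0.40 (SD, n = 3) in CYT cells, by -0.88 ± 0.39 in IL-1βlow cells and by -0.29 ± 0.51 in IL-1βlow + CYT cells. The kinase pair thus moved toward Cdk6 after the challenge alone, with every CYT library between 1.20 and 1.92, and toward Cdk4 after IL-1βlow, with every library between -1.31 and -0.54. The log2 ratio of Cdkn2c to Cdkn1b moved by -1.98 ± 0.35 in CYT cells, by -0.92 ± 0.23 in IL-1βlow + CYT cells and by -0.18 ± 0.21 in IL-1βlow cells, where the untreated libraries themselves spread by 0.27 (SD). The log2 ratio of Rbl1 to Rb1 moved by -0.65 ± 0.36 in CYT cells and by 0.10 ± 0.77 in IL-1βlow + CYT cells. Ratios of Ccnd2 and Ccnd3 to Ccnd1 rested on the few Ccnd1 counts. The change of Ccnd2 to Ccnd1 in CYT cells was -1.33, or -0.72 without untreated replicate 1, and that of Ccnd3 to Ccnd1 was -1.51, or -0.94 without it.

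The other genes of the pathway were followed through 7 lists by role, with 74 genes tested in all. For IL-1βlow against untreated edgeR called 0 of them, with 6 at an unadjusted p under 0.05. For CYT against untreated, 3 were called higher and 16 lower, beside 10.0% and 11.6% of all genes. On the adjusted p alone 7 were higher and 47 lower, beside 25.2% and 24.5%. In IL-1βlow + CYT against CYT, 14 were called higher and 3 lower, beside 6.54% and 5.92%. On the adjusted p alone 42 were higher and 4 lower there, beside 17.1% and 19.2%. Taking both directions together, 25.7% were called for CYT against untreated, beside 21.6% of all genes. On the adjusted p alone 73.0% passed, beside 49.7%. For IL-1βlow + CYT against CYT the shares were 23.0% and 62.2%, beside 12.5% and 36.3%. The median log2 fold change over all tested genes was -0.04 and 0.02 in these comparisons.

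Downstream of the pocket proteins, the G1/S genes that E2F factors activate were lower after the challenge. Of 15, 13 were lower on the adjusted p alone, beside 24.5% of all genes, with a median of -0.82. Only 3 of them were called, a share near the 21.6% of all genes called in either direction, and above the 11.6% called lower. Rrm2, a subunit of ribonucleotide reductase, fell from 140 ± 5.32 to 33.6 ± 5.70 CPM (log2 fold change -2.06, adjusted p = 3.32e-09). Ccna2, the S phase cyclin, fell by 1.61 on the log2 scale (adjusted p = 4.67e-09). In IL-1βlow + CYT against CYT, 13 of the 15 were higher on the adjusted p alone, beside 17.1% of all genes, and 4 were called, beside 6.54%, with a median of 0.72, and Rrm2 reached 122 ± 7.64 CPM (log2 fold change 1.86, adjusted p = 4.82e-08). Rbl1, whose promoter held an E2F word, had -1.03 after the challenge (adjusted p = 0.000934). In IL-1βlow + CYT against CYT, Rbl1 had 0.37, or 0.026 without IL-1βlow + CYT replicate 3, and did not pass. Control of Rbl1 by E2F factors was not tested.

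Of the 16 E2F, DP and DREAM/MuvB genes, 8 were lower and 1 higher after the challenge on the adjusted p alone. This stood beside 24.5% and 25.2% of all genes. None of the 8 reached the minimum, and the list median was -0.32. Lin37, a MuvB subunit, was the exception and rose by 1.51 (adjusted p = 2.36e-08), then was lower by -1.24 in IL-1βlow + CYT against CYT (adjusted p = 5.19e-07). The atypical repressors E2f7 and E2f8 were higher in that comparison, by 1.08 (adjusted p = 2.45e-06) and 1.02 (adjusted p = 2.75e-06). After the challenge without preconditioning they had -0.91 (adjusted p = 6.33e-06) and -0.98 (adjusted p = 1.81e-06). IL-1βlow + CYT against untreated gave 0.18 (adjusted p = 0.264) and 0.04 (adjusted p = 0.808). In IL-1βlow + CYT against CYT, the list had 5 higher and 1 lower on the adjusted p alone, beside 17.1% and 19.2% of all genes.

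The CDK2 arm fell with the challenge in its kinase and in both of its E-type cyclins. Cdk2 went from 40.9 ± 1.23 CPM in untreated to 13.02 ± 2.31 CPM in CYT cells (log2 fold change -1.65, adjusted p = 3.37e-08) and stood at 34.95 ± 1.82 CPM in IL-1βlow + CYT cells (1.42 against CYT, adjusted p = 5.07e-07). Ccne2 fell by 1.86 (adjusted p = 0.000228). Ccne1, named after its values were seen, went from 58.4 ± 3.41 to 29.7 ± 5.12 CPM (log2 fold change -0.98, adjusted p = 1.58e-05), short of the fold change minimum, and stood at 58.5 ± 8.21 CPM in IL-1βlow + CYT cells. In all, 3 of the 7 genes of that list were lower and 1 higher on the adjusted p alone, beside 24.5% and 25.2% of all genes. Skp2, the ligase subunit that targets p27 for degradation, fell by 1.45 (adjusted p = 1.63e-07) and was higher by 1.39 in IL-1βlow + CYT against CYT (adjusted p = 7.03e-07). Of the 8 ligase genes, 5 were lower and 1 higher after the challenge on the adjusted p alone, beside 24.5% and 25.2%. Their median was -0.59. The Cdkn1b mRNA level overlapped between all groups, and p27 protein, on which Skp2 acts, was not measured.

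Of the remaining inhibitors and the third pocket protein, 3 of 5 genes were tested. Cdkn1a, the p53-responsive inhibitor p21, rose from 51.3 ± 2.67 to 107 ± 14.5 CPM (log2 fold change 1.06, adjusted p = 1.04e-06) and stood at 44.5 ± 2.72 CPM in IL-1βlow + CYT cells (-1.26 against CYT, adjusted p = 5.46e-07). Cdkn2d, an INK4 gene like Cdkn2c, had -0.85 after the challenge (adjusted p = 1.02e-05) and 0.70 in IL-1βlow + CYT against CYT (adjusted p = 0.000110), in the same directions as Cdkn2c but short of the minimum. Rbl2, which encodes p130, had -0.06 after the challenge (adjusted p = 0.637) and 0.94 in IL-1βlow + CYT against CYT (adjusted p = 7.82e-06). Cdkn2d and Rbl2 were named after their values were seen. Cdkn2a had at most 2 counts and Cdkn2b had 0 in every library.

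Upstream, the 15 regulators of β-cell growth moved both ways. On the adjusted p alone 3 were higher and 7 lower after the challenge, beside 25.2% and 24.5% of all genes. Myc rose from 28.0 ± 10.1 to 117 ± 19.2 CPM after the challenge (log2 fold change 2.06, adjusted p = 7.51e-06) and stood at 21.2 ± 2.48 CPM in IL-1βlow + CYT cells (-2.46 against CYT, adjusted p = 3.41e-06). Cdk4, whose promoter held E-boxes, had 0.42 ± 0.11 (SE) after the challenge (adjusted p = 0.00303). In IL-1βlow + CYT against CYT, Cdk4 had 0.21 ± 0.11 (adjusted p = 0.110), and a link between Myc and Cdk4 was not tested. Prlr, the prolactin receptor through which lactogens drive β-cell growth, fell by 2.62 (adjusted p = 5.18e-07). In IL-1βlow + CYT cells Prlr had 0.97 against CYT (adjusted p = 0.00440) and was still called lower than in untreated cells (-1.65, adjusted p = 0.000112). The Wnt effector Tcf7l2 fell by 1.67 after the challenge (adjusted p = 0.000126). Tcf7l2 was higher by 1.47 in IL-1βlow + CYT against CYT (adjusted p = 0.000599). Its mean after the challenge alone, 0.907 ± 0.0614 CPM, was under the filter of 1 CPM, whereas the means of the other groups ran from 2.54 to 2.99. Tcf7l2 thus passed the filter on low counts only through groups other than CYT, so both calls were favoured by the filter itself.

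Mitotic genes were lower after the challenge as well. All 10 were lower on the adjusted p alone, beside 24.5% of all genes, and 8 were called, beside 11.6% called lower. The list had a median of -1.31 and was led by Top2a at -2.11 (adjusted p = 9.92e-09) and Plk1 at -1.505 (adjusted p = 1.12e-06). In IL-1βlow + CYT against CYT 9 were higher on the adjusted p alone, beside 17.1%, and 5 were called, beside 6.54% called higher. Among these 5 were Top2a at 1.53 (adjusted p = 7.44e-07) and Cenpa at 1.23 (adjusted p = 4.67e-06). The 10 mitotic genes summed to 1071 to 1131 CPM in untreated, 1034 to 1077 in IL-1βlow, 386 to 442 in CYT and 832 to 893 in IL-1βlow + CYT libraries. The summed β-cell markers, in the same order of groups, stood at 42869 to 49732, 38247 to 44840, 13962 to 14915 and 19944 to 25553 CPM. Gcg fell by 2.83 after the challenge (adjusted p = 2.22e-05). The 5 macrophage and leukocyte markers summed to 1.07 to 1.72 CPM in untreated, 0.769 to 1.05 in IL-1βlow, 2.16 to 3.42 in CYT and 4.44 to 5.77 in IL-1βlow + CYT libraries. Among them Adgre1 was called higher after the challenge (adjusted p = 3.43e-05), from a mean of 0.0191 to 1.35 ± 0.573 CPM, and stood at 2.79 ± 0.606 CPM in IL-1βlow + CYT cells. Csf1r was called higher in IL-1βlow + CYT against CYT, from 0.166 ± 0.111 to 1.43 ± 0.173 CPM (adjusted p = 0.000295). Adgre1 and Csf1r passed the filter on low counts only through challenged libraries, so these calls were favoured by the filter itself. The part of these shifts in the G1 results was not tested.

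**Figure D4:**
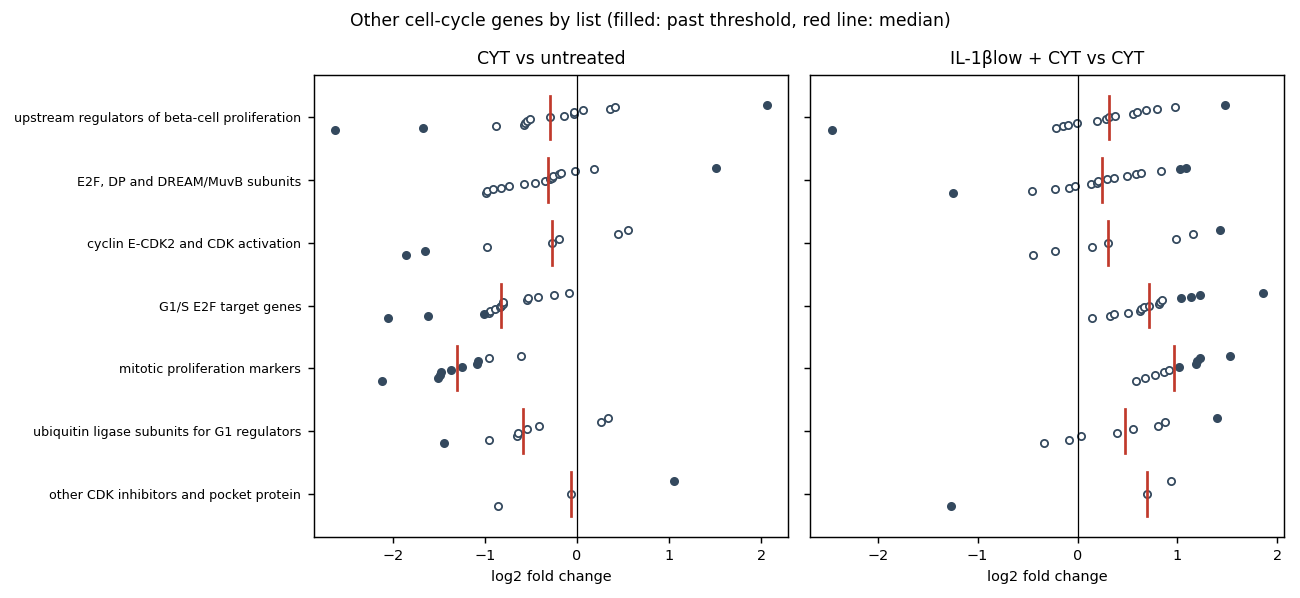
Log2 fold change (horizontal axis) of the other cell-cycle genes in 7 lists by role for CYT against untreated (left) and IL-1βlow + CYT against CYT (right); each point is a gene, filled where it was called, and red lines are list medians. The mitotic list has the lowest median on the left, -1.31, and the highest on the right, 0.96.

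The genes whose pattern was most like each member were found among 11405 tested genes outside the lists, by the root mean square difference in log2 CPM over the 12 libraries after centring each gene on its own mean. For Cdkn2c it was Hadh, a mitochondrial fatty acid dehydrogenase, at a distance of 0.077, against a spread of 0.899 (SD) in Cdkn2c itself. Hadh had 292 ± 3.95 CPM in untreated, 245 ± 1.17 in IL-1βlow, 63.7 ± 13.7 in CYT and 146 ± 24.5 in IL-1βlow + CYT libraries, the same order as Cdkn2c. The next closest to Cdkn2c was Synpo2 at 0.170. For Rbl1 the closest were Zhx1 (0.0799) and Evi5 (0.105), and for Cdk6 they were Glipr2 (0.168) and Ttc39b (0.209). For Cdk4 they were Stx1a (0.0733) and Sfxn3 (0.0740), and for Ccnd2 they were Pxk (0.115) and Gid4 (0.124). Ccnd3 and Cdkn1b, which varied little, lay close to Rrs1 (0.0379) and Pafah1b2 (0.0881), and the low genes Ccnd1 and Rb1 had no neighbour nearer than Ptgs1 (0.328) and Flna (0.177). Among the members themselves, Ccnd2 and Ccnd3 were the closest pair (0.246), and Cdk6 and Cdkn2c the farthest apart (1.73). These distances describe 12 libraries in 4 groups and carry no test.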

How the data were processed

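Per the labels and the study's methods, TruSeq libraries were sequenced, and the authors mapped reads that had passed FastQC and trimming to mRatBN7.2 and counted them per gene with featureCounts in R 4.3.3. The deposited table holds raw counts per gene symbol as whole numbers, with no normalization, and 0 of its columns were left unused. The strand setting of the counting was not given in the sources used here.

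Counts of all 12 libraries were fitted here in edgeR 4.0.16 (limma 3.58.1) with TMM scaling, after a filter of CPM above 1 in at least 2 libraries, and glmQLFTest p-values were adjusted by Benjamini-Hochberg over 14324 genes. Standard errors are the log2 fold change divided by the root of F, and intervals are 1.96 standard errors. Groups came from the sample titles. The script was tested on simulated data. Alternatives were RLE, upper quartile and no scaling factors, DESeq2 1.42.0, exactTest, 2 other filters, 2-group fits, a replicate block, 2 thresholds and leaving out each library. Ratios added 0.5 counts.

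Same-numbered libraries deviated together in all 3 pairs of IL-1βlow + CYT with CYT (r from 0.105 to 0.429) and with IL-1βlow (0.147 to 0.475), and of IL-1βlow with CYT (0.122 to 0.397), so the blocked fit is given there, and for the interaction, where it changed a call. With untreated libraries r ran from -0.176 to 0.168. No replicate pair of a group agreed within sampling noise.

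The members and lists were chosen with earlier results of these data known. Genes named are the members, at most 2 rises and 2 falls past the threshold per list and comparison, the 2 closest genes per member with mean log2 CPM above 2, the cell type markers, and 3 exceptions named in the text.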

Additional observations from a re-analysis of the deposited data

Results flagged for a closer look

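The CYT response of Cdkn2c differed between cells with and without IL-1βlow preconditioning by 1.52 on the log2 scale (SE 0.21, edgeR quasi-likelihood test of the interaction, adjusted p = 0.000121). It is listed because the test of the difference itself passed. The 3 libraries of IL-1βlow + CYT cells lay at 18.3 to 25.2 CPM, above the 7.82 to 12.01 CPM of CYT cells and under the 33.2 to 35.9 CPM of IL-1βlow cells. Preconditioning thus went with a smaller fall of this inhibitor, not with its absence. Groups of 3 libraries were not examined for single outlying samples.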

How the results depend on the processing

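Over all alternatives, 1073 fold change values kept their direction and side of the threshold, 19 passed newly, 6 no longer passed and 12 changed sign. For CYT against untreated, 4 genes were called, 2 to 4 with a library left out (2 without untreated replicate 1 or CYT replicate 2, which lost Ccnd1 and Rbl1) and 7 at an adjusted p under 0.01 or under 0.05 alone. Rbl1 also missed the minimum with no filter (-0.96) and in the 2-group fit (-0.99). In IL-1βlow + CYT against CYT, the 2 became 4 at an adjusted p under 0.01 alone, 5 under 0.05 and 2 to 3 with a library left out. The replicate block gave 3, through Ccnd1, as did exactTest. Between IL-1βlow + CYT and untreated cells, 0 became 1 with upper quartile factors or at least 10 counts in every library (Cdkn2c at -1.003 and -1.01), 0 to 1 with a library left out, and 2 and 5 at an adjusted p under 0.01 and 0.05 alone. Between IL-1βlow + CYT and IL-1βlow cells, 0 became 1 and 2 at these thresholds. The interaction count of 1 became 2 with RLE factors and with DESeq2 (both adding Cdk6), 3 with no filter and 3 with the replicate block (Ccnd1 at -2.08 and Cdk6 at -1.01), 1 to 2 with a library left out and 5 at an adjusted p under 0.05. The block changed no other call of a member. Under 0.01 alone, the shares of all genes in these pairs of groups were, in order, 49.7%, 36.3%, 13.8% and 8.20%. The share of all genes at an adjusted p under 0.05 was not counted.

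Values that changed sign were near 0 and were not called. Ccnd3 for IL-1βlow against untreated ran from -0.040 to 0.050 with a library left out, and was -0.032 without IL-1βlow replicate 1. Against untreated, IL-1βlow + CYT gave Ccnd3 0.0056 with no filter and -0.13 to 0.031 with a library left out, and gave Cdkn1b -0.18 to 0.026. Against IL-1βlow, it gave Ccnd3 -0.14 to 0.020, and Cdkn1b -0.031 to 0.17. The Rb1 interaction was 0.041 with upper quartile factors and -0.15 to 0.15 with a library left out, positive without untreated replicate 1, CYT replicate 1, IL-1βlow replicate 3 or IL-1βlow + CYT replicate 3. For alternatives other than a threshold or a left-out library, the cause was not tested. Upper quartile factors put the median of all genes at -0.14 for CYT against untreated, beside -0.04. Over the whole table, the 62 genes called for IL-1βlow against untreated became 139 with DESeq2, 137 with exactTest, 229 with no filter and 141 with the block. Depth limits Ccnd1, Rb1 and Cdkn1c, and 3 libraries a group limit every test.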
